A study of Mus musculus and Homo sapiens with 10 samples.

Results

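The comparison described here sets the break landscape of TK6 cells treated with etoposide against that of TK6 cells given DMSO, the vehicle. It uses 4 of the 10 libraries of the series, the 2 labelled etoposide and the 2 labelled DMSO. The other libraries are of mouse enterocytes and are not used. TK6 is an established human line of lymphoblastoid cells, that is, B lymphocytes growing in culture. The sources used here do not give the dose of etoposide, the length of the treatment or the number of cells behind each library. Separate cultures are not named in the labels, so every test below measures only the spread between these libraries, which may be technical. Break ends carry no expression values, so the labelled cell type could not be checked against marker genes.

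Topoisomerase II relieves twists and tangles in DNA by cutting both strands of one duplex, passing another duplex through the gap and sealing the cut again. While the gap is open, the enzyme stays covalently bound to the cut ends. Etoposide, a drug used against leukaemias and other cancers, keeps the enzyme in that cut state, and the trapped complexes can turn into double-strand breaks. In-suspension BLISS ligates an adapter to break ends in cells or nuclei and copies the flanking DNA for sequencing, so each count is a break end at a single base of the genome.

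Etoposide libraries held far more break ends than DMSO libraries. On chromosomes 1 to 22 (GRCh37), DMSO replicates 1 and 2 held 1059728 and 574645 break ends, and etoposide replicates 1 and 2 held 11254353 and 8807304. Both etoposide libraries lay above both DMSO libraries. The ratio was 10.6 between the libraries numbered 1, 15.3 between those numbered 2, and 12.3 between the group means. The 2 DMSO libraries differed from each other by 1.84 times and the 2 etoposide libraries by 1.28 times, so the gap between the groups was larger than the spread within them. The exact two-sided permutation test gave p = 0.3333, which is the lower limit for groups of 2 and 2. Without cell numbers, the ratio says how much each library yielded and nothing about breaks in a single cell. Counting each position once gave a ratio of 11.3.

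Break ends were spread thinly over single bases. Of all break ends, 2.95% and 1.43% shared their position with another under DMSO, and 12.4% and 20.1% did so after etoposide. With every library thinned at random to 574645 break ends (equal depth), these shares were 2.25% and 1.43% in DMSO against 1.23% and 2.94% after etoposide. At equal depth the groups overlapped.

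The chromosomes rich in break ends under DMSO were also the rich ones after etoposide. Relative density is the share of a library's break ends on a chromosome divided by the chromosome's share of 10 kb bins with break ends, so that 1 is the genome average. On chromosome 22, the relative density was 1.86 and 2.39 in DMSO replicates 1 and 2, and 2.15 and 2.80 after etoposide. Chromosome 19 had 1.67 and 2.13 in DMSO, and 1.87 and 2.49 after etoposide. On both chromosomes the etoposide library was above the DMSO library of the same number, yet etoposide replicate 1 lay between the DMSO libraries, so the groups overlapped. Chromosome 4 was the sparsest, with 0.664 and 0.568 in DMSO and 0.618 and 0.520 after etoposide, and overlapped too.

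For 3 of the 22 autosomes, both etoposide libraries lay on one side of both DMSO libraries. Chromosome 7 moved from 0.852 and 0.842 in DMSO to 0.862 and 0.855 after etoposide, and chromosome 14 from 0.953 and 0.964 to 0.977 and 0.975. Chromosome 12 was lower after etoposide, at 0.928 and 0.880 against 0.998 and 0.930. A 1 kb window of chromosome 12, from 20704001, held 4115 and 551 break ends in DMSO and 2971 and 1181 after etoposide. In total, the etoposide libraries held 10.6 and 15.3 times as many break ends as the DMSO libraries of the same number. Whether the groups stay apart on chromosome 12 without that window was not tested. All 3 differences in relative density were small, and the exact two-sided permutation test cannot go below 0.3333 for any of them. Within replicate numbers, 10 chromosomes were higher after etoposide in both numbers, 9 were lower in both, and chromosomes 10, 15 and 21 went opposite ways. Chromosome 21 also has such a window, from 9827001, with 2235 and 283 break ends in DMSO and 5722 and 2422 after etoposide. Its direction without that window was not tested.

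**Figure D1:**
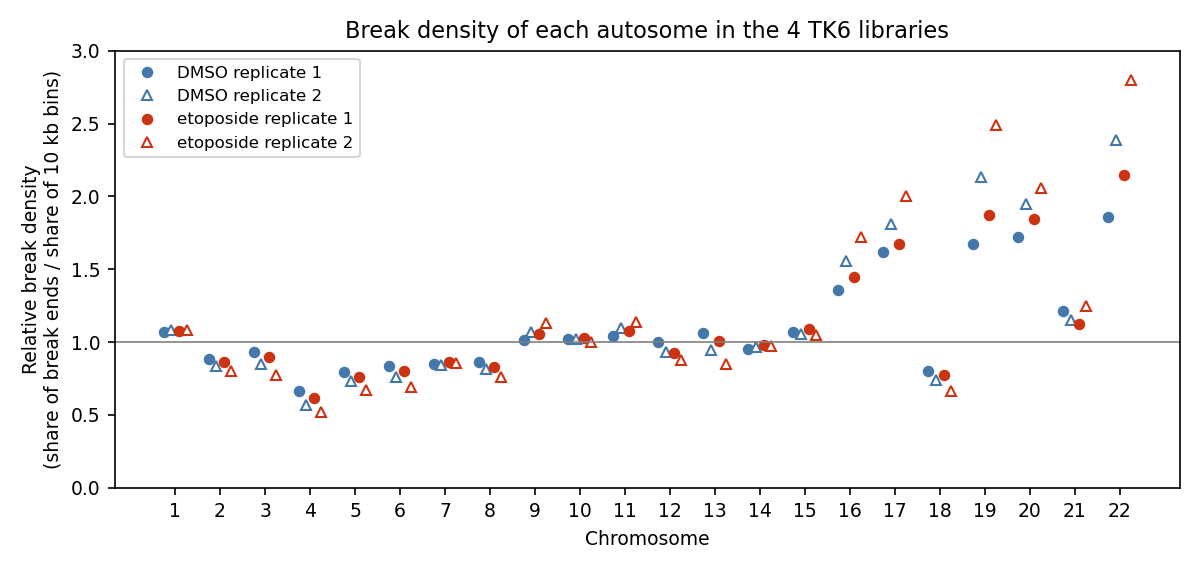
Relative break density (y axis; share of break ends over share of 10 kb bins) of each autosome (x axis) in the 4 libraries, 1 point per library. Chromosome 22 runs from 1.86 to 2.80 and chromosome 4 from 0.520 to 0.664, and points of the same replicate number keep a similar order in both treatments.

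Chromosome shares differed between replicate numbers at least as widely as between treatments. The ratio of etoposide to DMSO ran from 0.927 to 1.15 over the 22 chromosomes in number 1, and from 0.897 to 1.17 in number 2. The ratio of replicate 2 to replicate 1 ran from 0.856 to 1.28 in DMSO and from 0.841 to 1.33 after etoposide. It fell on the same side of 1 in both treatments for 19 of the 22 chromosomes. All these ratios include the windows just named on chromosomes 12 and 21. The labels share these numbers between the treatments but do not say that a number marks a pair, such as a day or a culture.

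In 100 kb bins, break ends were more concentrated after etoposide within each replicate number, but not beyond the spread between numbers. At equal depth, the densest 100 kb bins that together hold 50% of break ends made up 23.2% of bins in DMSO replicate 1, 16.1% in DMSO replicate 2, 19.8% in etoposide replicate 1 and 11.5% in etoposide replicate 2. The Gini coefficient, which is 0 when every bin holds the same number and approaches 1 when a single bin holds everything, was 0.389 and 0.508 in DMSO and 0.440 and 0.599 after etoposide. The mean was 0.449 ± 0.0843 (SD, n = 2) in DMSO and 0.520 ± 0.112 after etoposide. The groups overlapped, and the exact two-sided permutation test gave p = 0.667. The difference was 0.0511 between the libraries numbered 1 and 0.0908 between those numbered 2. Without etoposide replicate 2 the difference of the means was -0.00855, so the direction between groups rested on that library. In 10 kb bins the direction depended on depth: at equal depth the difference was 0.0444 and 0.0821 in numbers 1 and 2, at full depth it was -0.0157 and 0.0101, and at full depth with each position counted once it was -0.0303 and -0.0165.

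The gain was in dense bins. The 26814 bins of 100 kb were sorted into deciles (10 equal groups) by density in the 2 libraries of the other replicate number, so that no library ranked its own bins. The densest decile held 28.2% of break ends in DMSO replicate 1 and 37.2% in DMSO replicate 2, against 32.2% in etoposide replicate 1 and 45.6% in etoposide replicate 2. The sparsest decile held 3.09% and 1.85% in DMSO and 2.63% and 1.34% after etoposide. Wilson 95% intervals of these shares reach at most 0.125 percentage points to each side, and they cover counting error only. Without etoposide replicate 2, the densest decile's share was 0.686 percentage points lower after etoposide than in DMSO, against 6.23 points higher with it.

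Between libraries of the same number, the log2 ratio of etoposide share to DMSO share climbed with density. In number 1 it went from -0.23 in the sparsest decile to 0.19 in the densest, a span of 0.42. In number 2 it went from -0.47 to 0.29, a span of 0.76. The climb was not even: the first 3 deciles of number 2 all stood at -0.47, the ninth was at 0.01, and the densest was at 0.29. Computed on each chromosome alone, the densest decile exceeded the sparsest on 22 of 22 chromosomes in both numbers, with a median span of 0.43 and 0.68. Chromosomes 21, 12 and 17 had the smallest spans in number 1, at 0.00044, 0.03 and 0.14, against 0.78, 0.77 and 0.61 in number 2. Each of the 3 holds a 1 kb window with a heap of break ends. Those windows held 2235, 4115 and 4174 in DMSO replicate 1 alone, against 283, 551 and 566 in DMSO replicate 2. Spans by chromosome without these windows were not computed. Chromosome 9 had the largest span in both, at 0.62 and 1.05.

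**Figure D2:**
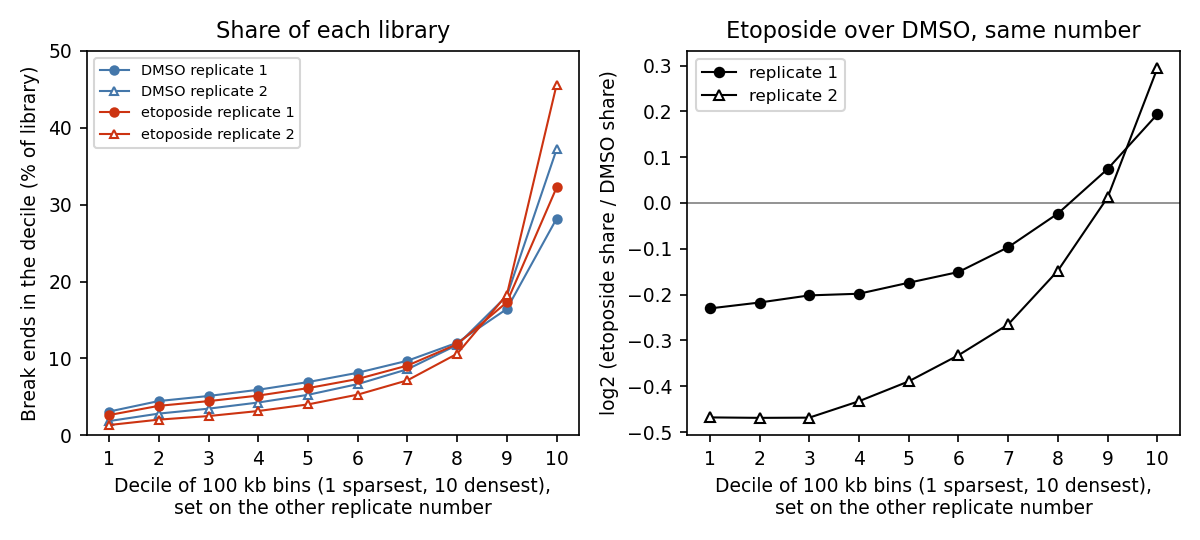
Left, share of each library's break ends (y axis, percent) in each decile of 100 kb bins (x axis, sparsest to densest). Right, log2 ratio of the etoposide share to the DMSO share of the same replicate number. Both curves climb, from -0.23 to 0.19 in number 1 and from -0.47 to 0.29 in number 2.

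Ranking each number's bins by the DMSO library of the other number alone, an alternative added after the data were seen, gave spans of 0.40 in number 1 and 0.72 in number 2. Bins dense without etoposide thus showed a similar climb.

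The span held at other bin sizes and settings. The mean of both numbers was 0.59 in 100 kb bins, 0.61 in 10 kb bins and 0.56 in 1 Mb bins. It was 0.58 at equal depth and 0.45 with each position counted once. Leaving out 17 windows of 1 kb that hold over 100 break ends per 1000000 in any library gave 0.63.

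The libraries were then compared bin by bin. Across the 2701 bins of 1 Mb with at least 10 break ends in every library, the log2 ratio of etoposide to DMSO in number 1 followed that in number 2 with a Pearson correlation of 0.71. The log2 ratio of replicate 2 to replicate 1 followed more closely between treatments, with a correlation of 0.88. These are descriptions across bins, which share libraries, depth and base composition and are not independent, and no p is given. The replicate ratios also had the wider spread: their SD over bins was 0.44 after etoposide and 0.38 in DMSO, against 0.21 and 0.29 for the treatment ratios of numbers 1 and 2.

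With the common trend on density removed, the correlation of the treatment ratios fell to 0.46 and that of the replicate ratios to 0.59. In 100 kb bins the pair of correlations was 0.42 for treatment and 0.48 for replicate, or 0.26 and 0.26 with the density trend removed. In 10 kb bins the order was the other way, 0.44 for treatment against 0.14 for replicate, over the 10006 bins deep enough to be compared. Those are 3.79% of the 10 kb bins and are dense ones. At equal depth the correlations were lower for treatment: 0.53 against 0.79 for replicate in 1 Mb bins, 0.22 against 0.37 in 100 kb bins and 0.28 against 0.22 in 10 kb bins. With the density trend removed as well, treatment had 0.27, 0.11 and 0.27.

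**Figure D3:**
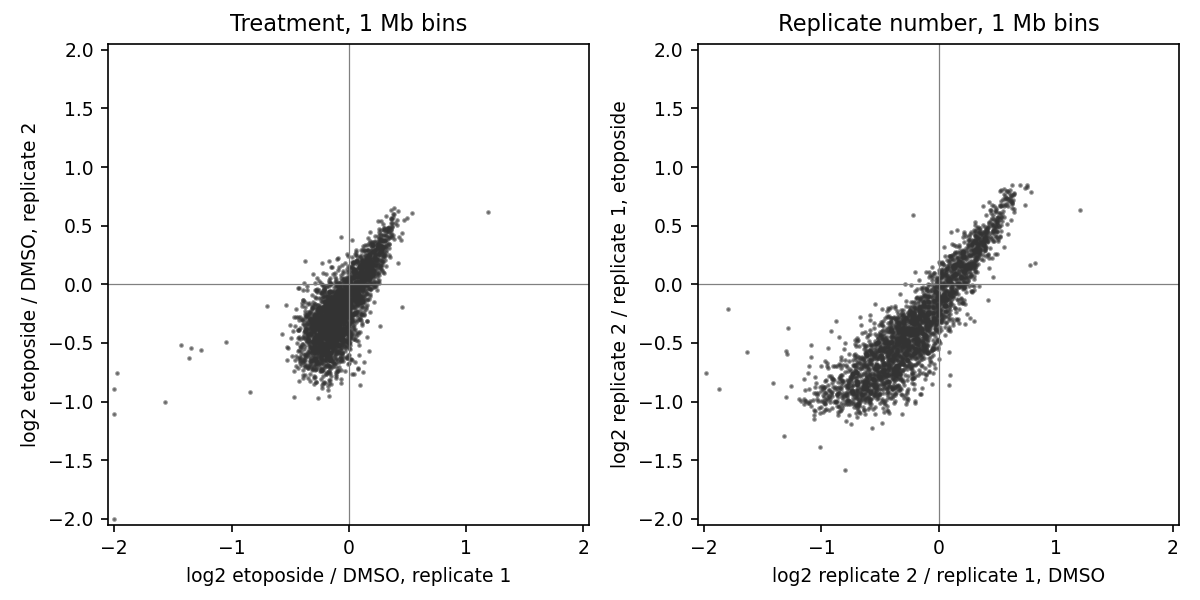
Each point is a 1 Mb bin. Left, log2 ratio of etoposide to DMSO in replicate 1 (x axis) and replicate 2 (y axis). Right, log2 ratio of replicate 2 to replicate 1 in DMSO (x axis) and after etoposide (y axis). Points past 2 are drawn at the edge. The correlation is 0.71 on the left and 0.88 on the right.

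The treatment ratio extended over neighbouring bins. The ratio of a 100 kb bin in one number was set against that of a bin further along the chromosome in the other number. The correlation was 0.42 for the bin itself, 0.34 for the next bin 0.1 Mb away, 0.25 at 0.5 Mb, 0.19 at 1 Mb, 0.14 at 2 Mb and 0.06 at 10 Mb. With the density trend removed, it was 0.26 for the bin itself, 0.08 at 0.1 Mb and 0.03 at 1 Mb.

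Single bins were tested with edgeR's quasi-likelihood F test on the counts, without a term for the replicate number, and a bin was called at a Benjamini-Hochberg adjusted p under 0.05 over all bins of its size. Few bins were called at any size. In 10 kb bins, 0 of 137066 were higher after etoposide (0%) and 1 was lower (0.00073%), with 4747 at an unadjusted p under 0.05, and DESeq2 called 0 higher and 4 lower, with 2621. In 100 kb bins, 0 of 26410 were higher (0%) and 3 were lower (0.0114%), with 542 at an unadjusted p under 0.05, and DESeq2 called 0 in either direction, with 345. In 1 Mb bins, 2 of 2721 were higher (0.0735%) and 4 were lower (0.147%), and DESeq2 called 0 and 1, with 51 and 35 at an unadjusted p under 0.05 in edgeR and DESeq2. DESeq2 was run without the filter on low counts and tested 263852, 26814 and 2733 bins of the 3 sizes. In both tools and at every size, the share of tested bins at an unadjusted p under 0.05 was itself below 0.05. These unadjusted counts are thus no more than expected without any change. They do not show that nothing changed, because a fit without a replicate term counts replicate differences as spread. With a term for the replicate number, edgeR had 970 of 2721 bins of 1 Mb at an unadjusted p under 0.05. Fold changes are relative to the trimmed-mean (TMM) scaling. With plain library size scaling the median log2 fold change went from 0.10 to -0.16 in 10 kb bins, from 0.02 to -0.17 in 100 kb bins and from -0.02 to -0.18 in 1 Mb bins.

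The calls depended on single libraries. Leaving out etoposide replicate 1 raised the calls to 42 higher and 69 lower in 10 kb bins, 28 and 80 in 100 kb bins, and 10 and 5 in 1 Mb bins. Without etoposide replicate 2 they were 1 and 8 in 10 kb bins, 0 and 2 in 100 kb bins, and 0 and 2 in 1 Mb bins. Without DMSO replicate 1, 0 of the 10 bins named by the test kept their call, and the counts were 0 and 0 in 10 kb bins, 0 and 0 in 100 kb bins, and 0 and 1 in 1 Mb bins. Without DMSO replicate 2, 7 of the 10 kept it, and the counts were 0 and 0, 0 and 2, and 1 and 4. A fit with 1 library on a side takes that library to vary like those of the other group. These fits also tested unlike sets of 10 kb bins: 38491, 36646, 231961 and 234594 in the order given, against 137066 with all 4 libraries. Their 10 kb counts are therefore not like for like.

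The 8 bins that fell relative to the library totals were places where break ends grew less than the libraries did, most of them heaped in a narrow window. In the 10 kb bin of chromosome 1 from 570001 to 580000, the 2 DMSO libraries held 27 and 12 break ends and the 2 etoposide libraries held 22 and 13. The raw numbers were nearly equal although the etoposide libraries were 10.6 and 15.3 times as deep. The log2 fold change was -3.51 (SE 0.49, edgeR adjusted p = 1.63e-07), and in every library all of its break ends lay in a single 1 kb window. At equal depth the log2 fold change was -3.75 with an edgeR adjusted p of 0.378, or 0.0211 with the replicate block.

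Among 100 kb bins, chromosome 19 from 24100001 to 24200000 held 153 and 23 break ends in DMSO and 242 and 143 after etoposide. The log2 fold change was -2.12 (SE 0.31, edgeR adjusted p = 1.24e-07). A single 1 kb window held 112 and 15 of the DMSO break ends and 69 and 27 of those after etoposide. Chromosome 20 from 26100001 to 26200000 held 86 and 19 in DMSO and 259 and 158 after etoposide, a log2 fold change of -1.34 (SE 0.25, edgeR adjusted p = 0.00123). Both bins lie within 0.5 Mb of a stretch of at least 1 Mb without break ends in any library. Each etoposide library held more than its same-numbered DMSO library, but by 1.58 to 8.32 times and not by 10.6 or 15.3.

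The third such 100 kb bin, chromosome 11 from 85100001 to 85200000, was called although its groups overlapped. It held 225 and 17 break ends in DMSO against 404 and 123 after etoposide, a log2 fold change of -2.14 (SE 0.39, edgeR adjusted p = 0.00068). A 1 kb window held 212 and 14 of them in DMSO and 213 and 48 after etoposide. Outside that window the bin held 13 and 3 in DMSO and 191 and 75 after etoposide, a ratio of 14.7 in number 1 and a higher one in number 2. With the pile-up windows left out, its log2 fold change was 0.61 and not called (edgeR adjusted p = 0.999).

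The 4 lower 1 Mb bins each held a pile-up window, of differing weight. Chromosome 16 from 33000001 to 34000000 held 1059 and 165 break ends in DMSO and 2012 and 1363 after etoposide, a log2 fold change of -1.77 (SE 0.14, edgeR adjusted p = 1.95e-34). One 1 kb window held 933 and 86 of them in DMSO and 677 and 246 after etoposide. The rest of that 1 Mb held 10.6 and 14.1 times as many break ends after etoposide, close to the library ratios of 10.6 and 15.3. The others were chromosome 2 from 230000001 (log2 fold change -0.86), chromosome 2 from 133000001 (-0.93) and chromosome 1 from 91000001 (-0.68), with edgeR adjusted p of 1.1e-05, 0.000154 and 1.2e-05. On chromosome 1 from 91000001 the fullest window held 149 of 574 and 21 of 170 break ends in DMSO. Outside it, the ratios were 6.45 and 11.8. That remainder still counts a second pile-up window next to it, from 91852001, with 147 and 20 break ends in DMSO and 177 and 88 after etoposide. With the pile-up windows left out none of the 4 was called, and their log2 fold changes were 0.14, 0.07, 0.14 and -0.04 in the order given.

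The windows left out as pile-ups are described here without a test, because DMSO values chose them. Of the 17 windows, 16 lie on autosomes. All 16 were past 100 break ends per 1000000 in DMSO replicate 1 and 7 in DMSO replicate 2, and 13 were past it in DMSO libraries only. A ratio below that of the libraries was therefore largely fixed by the choice. They held 1.35% of break ends in DMSO replicate 1 and 0.336% in DMSO replicate 2, against 0.169% and 0.0822% after etoposide. Their raw ratio of etoposide to DMSO had a median of 1.04 in number 1 (0.412 to 8.65) and 3.14 in number 2 (1.42 to 9.54). In 5 of the 16, the etoposide library numbered 1 held fewer break ends than the DMSO library numbered 1, and in number 2 none did.

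The heaviest window, chromosome 17 from 33478001 to 33479000, held 4174 and 566 break ends in DMSO and 6091 and 2088 after etoposide. Chromosome 12 from 20704001 to 20705000 held 4115 and 551 in DMSO and 2971 and 1181 after etoposide. Chromosome 21 from 9827001 to 9828000 held 2235 and 283 against 5722 and 2422. The window on chromosome 6 from 58778001 to 58779000 came nearest to the library ratios, with 115 and 28 against 995 and 267. DMSO replicate 1 was the highest library per 1000000 break ends in every one of the 3 heaviest. Where the heaped ends came from was not tested.

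**Figure D4:**
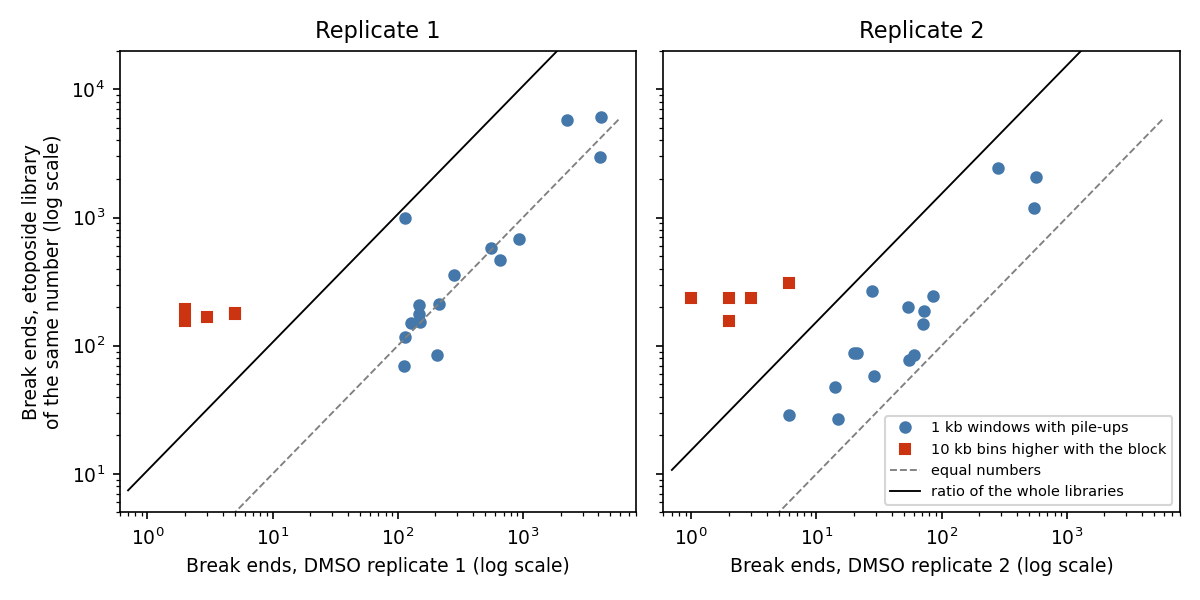
Break ends in the etoposide library (y axis, log scale) against the same-numbered DMSO library (x axis, log scale). Blue points are the 16 autosomal 1 kb windows with pile-ups, which were chosen mostly by high DMSO values. The solid line is the whole-library ratio and the dashed line is equal numbers. Red squares are 5 of the 18 bins of 10 kb called higher with the replicate number in the fit, chosen for their low DMSO and high etoposide numbers.

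The 2 higher 1 Mb bins had groups that overlapped. Chromosome 17 from 81000001, the last bin of that chromosome, held 192 and 331 counts per 1000000 (CPM, TMM-scaled) in DMSO and 265 and 573 after etoposide. Its log2 fold change was 0.73 (SE 0.13, edgeR adjusted p = 1.1e-05). Chromosome 2 from 95000001, which borders a stretch without break ends, had 263 and 340 CPM in DMSO and 339 and 536 after etoposide, a log2 fold change of 0.56 (SE 0.14, edgeR adjusted p = 0.0201). In both bins each etoposide library was above the DMSO library of its own number, and etoposide replicate 1 was below DMSO replicate 2. Neither was called by DESeq2 (adjusted p = 0.971 for both) or with plain library size scaling (edgeR adjusted p = 0.936 for both).

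With the replicate number as a block, the fit compares libraries within numbers and leaves 1 residual degree of freedom, so its p-values lean on the spread pooled over bins. In 1 Mb bins, the block raised the calls to 574 higher (21.1%) and 121 lower (4.45%) of 2721. The median log2 fold change was 0.33 among bins called higher and -0.28 among those called lower. At equal depth the block gave 438 and 56. The groups did not overlap in 71 of the 574 and in 79 of the 121. How many of all 2721 tested bins did not overlap was not computed, so neither count is shown to be high or low. Most of the higher calls had groups that overlapped, so their difference shows only within numbers.

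The 1 Mb bins called higher with the block were the dense ones. Of the 574, 524 were in the densest 3 deciles of bins and 470 touched another bin called higher. In the densest decile 245 of 274 bins were called higher, and in the sparsest decile 3 of 261. Here the deciles come from the mean of all 4 libraries, so density and fold change share their data. The median log2 fold change ran from -0.11 in the sparsest decile to 0.41 in the densest. Of the 121 called lower, 84 were in the sparsest 5 deciles. By chromosome, the share of bins called higher was 80.6% on chromosome 22 (29 of 36), 65.5% on 19 (38 of 58), 58.8% on 17 (47 of 80) and 39.5% on 16 (32 of 81). It was 7.22% on chromosome 13 and 4.74% on chromosome 4.

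Among 1 Mb bins called higher, those with the smallest p under the block after the pair already named were on chromosomes 10, 17 and 7. Chromosome 10 from 135000001, its last bin, had 361 and 646 CPM in DMSO and 474 and 978 after etoposide (log2 fold change 0.49, SE 0.08, edgeR adjusted p with the block = 3.69e-08). Without the block its adjusted p was 0.995, and without etoposide replicate 2 its log2 fold change was -0.0718. Chromosome 7 from 5000001 to 6000000 had 477 and 718 in DMSO and 655 and 1116 after etoposide (0.54, SE 0.09, adjusted p = 1.61e-07). Chromosome 17 from 29000001 to 30000000 had 374 and 417 in DMSO and 468 and 626 after etoposide, so its groups did not overlap (0.44, SE 0.07, adjusted p = 3.69e-08). These 3 were chosen by p after their values were seen.

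A scaling that follows density removed most of these calls. Each library's counts were scaled by a loess curve on the bin's mean abundance in place of a single factor, an alternative added after the data were seen. With that scaling and the block, 49 bins of 1 Mb were called higher (1.8%) and 50 lower (1.84%). Of the 574 higher calls 43 remained, and of the 121 lower calls 23 remained. With loess and no block, 0 were called in either direction by edgeR, with 106 at an unadjusted p under 0.05. By construction this scaling takes away any change that follows density, whatever its source.

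**Figure D5:**
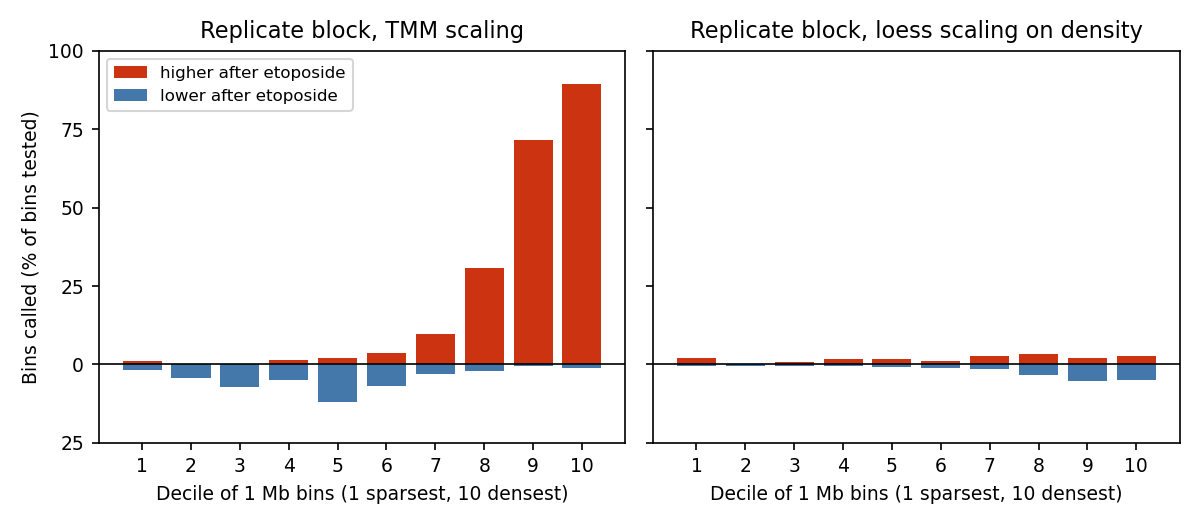
Percent of 1 Mb bins called higher (red, upward) or lower (blue, downward) after etoposide in each decile of density, with the replicate number as a block. With TMM scaling (left) 245 of 274 bins of the densest decile are called higher, and with loess scaling on density (right) 7 of 274 are.

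What remained beyond the density trend was uneven over chromosomes. Of the 50 lower 1 Mb bins, 11 were on chromosome 20 (of 61 tested) and 9 on chromosome 13 (of 97), together with 6 on chromosome 1 (of 230). Of the 49 higher bins, 10 were on chromosome 7 (of 158) and 6 on chromosome 17 (of 80), while chromosomes 3, 4, 6, 13 and 20 had 0. On chromosome 20 the block with TMM scaling had called 16 bins higher and 6 lower. The bin of chromosome 7 from 65000001 to 66000000 had 184 and 213 CPM in DMSO and 241 and 278 after etoposide, groups that did not overlap (log2 fold change with loess and block 0.47, edgeR adjusted p = 0.000157).

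In 100 kb bins, the replicate block called 7 higher (0.0265%) and 17 lower (0.0644%), with 3296 at an unadjusted p under 0.05. At equal depth the block called 243 and 22 of 19591 bins tested, so the total rose on thinning, with a cause that was not tested. With loess scaling and the block, 23 were higher (0.0871%) and 40 lower (0.151%), and all 7 higher and 14 of the 17 lower were among them.

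The 100 kb bins called higher with the block had moderate numbers of break ends. Chromosome 10 from 43300001 to 43400000 held 26 and 8 break ends in DMSO and 379 and 389 after etoposide, ratios of 14.6 and 48.6. In CPM these were 21.4 and 13.8 against 30.7 and 56.1, which do not overlap (log2 fold change 1.05, SE 0.24, edgeR adjusted p with the block = 0.0246). Chromosome 15 from 96800001 to 96900000 held 59 and 22 against 841 and 842, and chromosome 7 from 138500001 to 138600000 held 40 and 10 against 561 and 447. Their CPM did not overlap either, with adjusted p of 0.0305 and 0.039 with the block. In all 3 the ratio was much larger in number 2 (38.3 to 48.6) than in number 1 (14.0 to 14.6).

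At equal depth with the block, none of these 3 was called. Their log2 fold changes were 0.47 on chromosome 10, 0.64 on chromosome 15 and 1.08 on chromosome 7, with edgeR adjusted p of 0.69, 0.239 and 0.0628.

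In the remaining 2 of the 5 with the smallest p, the rise was more alike in both numbers. Chromosome 5 from 700001 to 800000 held 33 and 33 break ends in DMSO and 646 and 822 after etoposide, ratios of 19.6 and 24.9 (log2 fold change 1.004, SE 0.22, edgeR adjusted p with the block = 0.013). Chromosome 9 from 141000001 to 141100000, at the covered end of the chromosome, held 12 and 14 against 288 and 353, ratios of 24.0 and 25.2 (1.15, SE 0.26, adjusted p = 0.0218). Without the block their adjusted p was 0.999 and 0.198. With the block at equal depth, chromosome 5 kept its call (1.10, edgeR adjusted p = 0.0127) and chromosome 9 did not (0.71, adjusted p = 0.503). In CPM the 2 bins overlapped between groups, because DMSO replicate 2 was above etoposide replicate 1.

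The 5 lower 100 kb bins with the smallest p under the block each held a pile-up window. They were the bins of chromosomes 19 and 11 already named, chromosome 1 from 91800001 (log2 fold change -1.94), chromosome 2 from 230000001 (-2.32) and chromosome 1 from 500001 (-2.98), with block-adjusted p in edgeR of 7.3e-14 or below. The last held 830 and 273 break ends in DMSO and 958 and 468 after etoposide. That stretch near the start of chromosome 1 is known to carry a nuclear copy of mitochondrial DNA.

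In 10 kb bins, the replicate block called 18 higher (0.0131%) and 18 lower (0.0131%), and 2 and 14 of the 12187 bins tested at equal depth. With loess and the block, 14 were higher and 42 lower. All 18 higher bins did not overlap between groups, 16 were in the densest 3 deciles, and none touched another. These deciles come from the mean of all 4 libraries, so decile, overlap and call share their data. The choice by p thus favours separate groups and a dense decile. How many of all tested 10 kb bins did not overlap was not computed. The 18 bins held 0 to 7 break ends in each DMSO library, and 2 of them held 0 in both. They held 65 to 268 in etoposide replicate 1 and 52 to 402 in etoposide replicate 2. Their median in DMSO was 3.5 and 3 break ends, against 3 and 1 over all 10 kb bins, most of which are sparser. Ranked by the other replicate number, the densest decile of 10 kb bins held 32.6% and 44.5% of DMSO break ends. The DMSO numbers of these 18 were not compared with bins of like density.

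The 5 with the smallest p, chosen after their values were seen, show how few DMSO ends lie behind such a call. Chromosome 3 from 47450001 to 47460000 held 2 and 6 break ends in DMSO and 193 and 309 after etoposide. Its raw ratios were 96.5 (exact 95% counting interval 26.4 to 803) and 51.5 (23.4 to 141), and both intervals lie above the library ratios of 10.6 and 15.3. The choice of bins by p largely fixed that outcome, so the intervals show counting error and are no further support. The log2 fold change with the block was 2.56 (SE 0.52, edgeR adjusted p = 0.00737). Without the block the adjusted p was 1, as for the other 4. With the block at equal depth it was 0.174, at a log2 fold change of 1.91, and the other 4 had too few break ends to be tested.

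Chromosome 16 from 1270001 to 1280000 held 5 and 1 in DMSO and 177 and 237 after etoposide, with counting intervals of the ratio from 14.9 and from 42.1 upward. Chromosome 12 from 113720001 to 113730000 held 3 and 3 against 167 and 237, with intervals from 18.7 and 26.7 upward. Chromosome 22 from 51140001 to 51150000 held 2 and 2 against 155 and 155, with intervals from 21.1 upward in both. Chromosome 7 from 151380001 to 151390000 held 5 and 2 against 179 and 235, with intervals from 15.1 and 32.2 upward. In all 4 the lower bound is above the library ratio, which the choice by p largely fixed. Bins picked as the most extreme of 137066 can also overstate their own size. The 2 etoposide libraries alone were enough for such a bin to pass the filter on low counts. In each of these 5 bins, the 1 kb window with the highest mean share over the 4 libraries held 7.59% to 24.5% of the ends after etoposide. The few DMSO ends took part in choosing that window, so it need not be the fullest after etoposide. Whether the ends were heaped after etoposide was not tested. The same 10 kb bins had neighbours that did not move as far, with log2 fold changes of 0.39 to 1.36 in the adjoining bins that were tested. The choice of the 5 bins by p largely fixed that order too.

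The lower 10 kb bins with the block included heaps of different width. Chromosome 5 from 134260001 to 134270000 held 217 and 74 break ends in DMSO and 241 and 122 after etoposide (log2 fold change -2.99, SE 0.39, edgeR adjusted p with the block = 8.76e-10). Chromosome 19 from 36060001 to 36070000 held 209 and 7 against 109 and 46 (-3.24, SE 0.42, adjusted p = 8.29e-10). In the first, the 1 kb window with the highest mean share over the 4 libraries held 22.97% to 29.5% of each library's ends. That heap was thus broader than 1 kb. In the second, the window chosen in the same way held 63.0% to 97.6%.

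Depth set what could be seen at each size. The median 10 kb bin held 3 and 1 break ends in DMSO and 26 and 11 after etoposide. The median 100 kb bin held 30 and 13 in DMSO and 282 and 147 after etoposide, and the median 1 Mb bin held 313 and 142 against 3038 and 1770. In DMSO, 29363 and 91311 of the 263852 bins of 10 kb held no break end, against 663 and 2963 after etoposide. A bin without DMSO ends at 10 kb is therefore not shown to lack breaks.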

How the data were processed

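The deposited files hold, for each library, positions with counts of break ends that are not normalized; per the labels' protocols, an adapter was ligated to blunted ends and the flanking DNA was copied into RNA before sequencing. The submitters' processing notes name BWA and, for human, GRCh37; the sources used here do not give its version, the filters, or whether a count is of molecules or of reads. Counts of positions listed more than once (26, 2, 7001 and 10322 lines beyond the first) were added up, and chromosomes 1 to 22 were kept. Counts were summed in bins of 10 kb, 100 kb and 1 Mb and tested with edgeR 4.0.16 (R 4.3.3; filterByExpr, TMM, glmQLFit, glmQLFTest); standard errors were taken from the fold change and its F statistic. DESeq2 1.42.0, the replicate number as a block, equal depth, loess scaling (limma 3.58.1, span 0.3) and further alternatives were run. The fits and functions were tested on simulated data. Named bins were those called without a block whose groups did not overlap, and at most 5 by p in each direction with the block at 100 kb; other bins were chosen after their values were seen. The comparison, the bin sizes and the lists were chosen with earlier results of these data known. Shared replicate numbers give only 2 pairs, too few to check the pairing from the data. No human annotation or genome sequence was used here, so bins carry no gene names or sequence. Binning and exact tests used Python 3.11.15 with scipy 1.17.1, numpy 2.4.6 and pandas 2.3.3, and plots used matplotlib 3.10.9.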

Additional observations from a re-analysis of the deposited data

How the results depend on the processing

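The totals and the span of the log2 ratio between densest and sparsest deciles kept their direction under every alternative run for them. Counts of called bins did not. The cause of each change was not tested. At 10 kb the counts also come from unlike sets of bins. The main fit tested 137066, equal depth 12187 or 12222, the stricter filter 31857, and DESeq2 and no filter 263852. Fits with a library left out tested 36646 to 234594. In 10 kb bins (main counts 0 higher and 1 lower), other pairs were 0 and 4 (DESeq2), 0 and 8 (library size scaling), 0 and 0 (no filter on low counts), 0 and 19 (stricter filter), 0 and 2 (each position once), 1 and 5 or 1 and 13 (equal depth, either random draw), 0 and 0 (bins shifted), and 7 and 34 (loess). With the replicate block they were 18 and 18, with block at equal depth 2 and 14, and with block and loess 14 and 42. Leaving out single libraries gave 0 to 42 higher and 0 to 69 lower.

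In 100 kb bins (0 and 3), other pairs were 0 and 0 (DESeq2), 0 and 7 (library size scaling), 0 and 6 (each position once), 1 and 3 (equal depth) and 1 and 4 (bins shifted). With the replicate block they were 7 and 17, with block at equal depth 243 and 22, and with block and loess 23 and 40. Leaving out single libraries gave 0 to 28 higher and 0 to 80 lower.

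In 1 Mb bins (2 and 4), other pairs were 0 and 1 (DESeq2), 0 and 7 (library size scaling), 1 and 3 (each position once), 1 and 0 (pile-up windows left out), 2 and 2 or 1 and 3 (equal depth), 1 and 5 (bins shifted) and 0 and 0 (loess). With the replicate block they were 574 and 121, with block at equal depth 438 and 56, and with block and loess 49 and 50. Leaving out single libraries gave 0 to 10 higher and 1 to 5 lower.

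The difference of the Gini coefficient ran from -0.00855 to 0.151 and that of the densest decile's share from -0.686 to 12.3 percentage points over libraries left out, the negative values without etoposide replicate 2. Within replicate numbers (the block) these were 0.0511 and 0.0908, and 4.05 and 8.41 points. In 10 kb bins at full depth the Gini difference was -0.0157 and 0.0101.

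Of the 10 bins called without a block, 10 kept call and direction with the block, 1 in DESeq2, 3 with pile-up windows left out, 5 with each position once and 2 with loess. Over 43 described bins, 12 of the values that alternatives gave reversed. With pile-up windows left out these were 0.61 (chromosome 11 from 85100001), 0.26 (1 from 91800001), 0.0319 (12 from 20700001), 0.0432 (16 from 33900001), 0.52 (17 from 33400001) and 0.68 (2 from 133000001) in 100 kb bins, and 0.14 (16 from 33000001), 0.068 (2 from 230000001), 0.14 (2 from 133000001), 0.12 (17 from 33000001) and 0.28 (1 from 1) in 1 Mb bins. Leaving out single libraries, the 1 Mb bin of chromosome 10 from 135000001 ran from -0.0718 (without etoposide replicate 2) to 1.02 (without DMSO replicate 2). Shifted bins give no value for a described bin and were not run for them. Depth limits the 10 kb bins most, where the median DMSO bin holds 3 and 1 break ends.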
